A study of Danio rerio with 10 samples.

Results

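In the brains of adult *ppp2r2c* mutant zebrafish, 115 genes met a rule for being lower in every library from fish given methylphenidate (MPH) or valproate than in both libraries from vehicle-treated mutants. The rule was applied to these very values. Counts were scaled to the total of each library, as CPM (the count over the library total, times 1e6), and a gene was taken when its highest value among the 6 drug libraries was at most 0.67 times the lower vehicle value and its mean vehicle level was at least 2 CPM. Of 32266 genes counted, 15876 reached that vehicle level and 145 met both limits, which is 0.913% of the 15876. Genes of DNA replication (11), mitosis (12) and sterol synthesis (7) were then left out, and no globin gene met the limits. Being lower under both drugs is therefore how the genes were chosen and not a result, and it is given without a test.

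The experiment used 6-month-old fish of the Tübingen strain, with RNA from 2 pooled brains in each library. Vehicle was given to WT fish (2 libraries) and to *ppp2r2c* m1/m1 fish (2 libraries). MPH at 1.08 mg/kg (3 libraries) or valproate at 300 mg/kg (3 libraries) was given only to *ppp2r2c* m1/m1 fish, which makes 4 groups. The drugs were given for 3 days in soaked food. The m1 allele is a frameshifting deletion made with CRISPR-Cas9 in a gene for a regulatory subunit of the phosphatase PP2A, and all drug-treated fish carried it. No library from drug-treated WT fish was analysed here, so a drug value can be set beside WT only together with the mutation. In these bulk samples a lower value for a gene of 1 cell type can come from fewer such cells or from less RNA in each, and these cannot be told apart.

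Many of the 115 genes belong to systems that are well known in the brain. Heat shock chaperones of the HSP70, HSP90 and J-domain families fold new proteins and refold damaged ones, and in vertebrates their inducible members are under the control of heat shock factors. Tubulins build microtubules and neurofilaments fill axons, while myelin genes serve the membrane that oligodendrocytes wrap around them. Radial glia, the stem cells of the adult fish brain, go on producing neurons throughout life. Methylphenidate blocks the reuptake of dopamine and noradrenaline, and valproate is an anticonvulsant and mood stabilizer that also inhibits histone deacetylases. In its list of reagents the paper names the MPH used as a ritalinic acid hydrochloride solution. Which compound the fish received was not checked here. The paper reports that MPH restored PP2A activity in *ppp2r2c* m1/m1 fish. It proposes PP2A activation, rather than the dopamine pathway, as the better account of how MPH acts there.

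The 10 libraries held from 19224942 to 25851076 counts on genes, with a median of 21647733.5. With 0 counts, up to 3 are still possible in a library, equal to between 0.116 and 0.156 CPM. These limits cover counting error only. The number of genes with a count ranged from 21142 in MPH replicate 1 to 23618 in MPH replicate 3. MPH replicate 1 thus had the fewest genes although it held the most counts, 25851076. Counts were not divided by gene length, so levels are compared mainly between libraries for the same gene. Where genes are ranked below by level or abundance, the order is that of CPM, which depends on gene length too. *PPP2R2C* (ENSDARG00000056797) had 1105 and 1239 counts in WT and 1053 and 1026 in mutant vehicle libraries. Its relative *ppp2r2cb* had 580 and 646 counts in WT and 417 and 390 in mutant vehicle libraries. Which of these genes was edited was not checked, and counts on a whole gene do not read the edited allele. By RT-qPCR the paper reports a lower mRNA level of the mutated gene. Nothing in the labels says that libraries of a group came from separate tanks or days, so p values measure the spread between these libraries, which may be partly technical.

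Taken by library, the median of the 115 genes stood at 35.0%, 37.5% and 47.3% of the mean vehicle level in the MPH libraries and at 39.4%, 44.4% and 46.4% in the valproate libraries. In the WT libraries it was 79.8% and 75.3%. For the median gene the WT values thus lay between the drug and the vehicle values. The rule did not read WT, but it took genes that were low in the drug libraries and high in the vehicle libraries, so WT values above the drug libraries and below the vehicle libraries are both favoured by the choice. Counts of either position are given as descriptions below, and the shares over all genes beside them come from genes that were not selected. MPH replicate 3 and valproate replicate 3 each held the highest drug value of 27 genes, against 8 genes for MPH replicate 1. The genes spanned mean vehicle levels from 2.06 to 1723 CPM, with a median of 8.24 CPM. Only 13 were above 100 CPM and 42 were under 5 CPM, where few counts decide a ratio. Over all 15876 genes at this vehicle level, 12.3% had all 6 drug libraries below both vehicle libraries and 7.09% had all 6 above. With TMM scaling of the libraries, which corrects for a few genes taking a large share of a library, these shares were 10.5% and 10.3%. TMM multiplies each library total by a factor, which was lowest for MPH replicate 1, at 0.878. In the other libraries it was between 0.945 and 1.08. Scaled to the library total, values of MPH replicate 1 therefore lie lower than with TMM scaling.

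**Figure D1:**
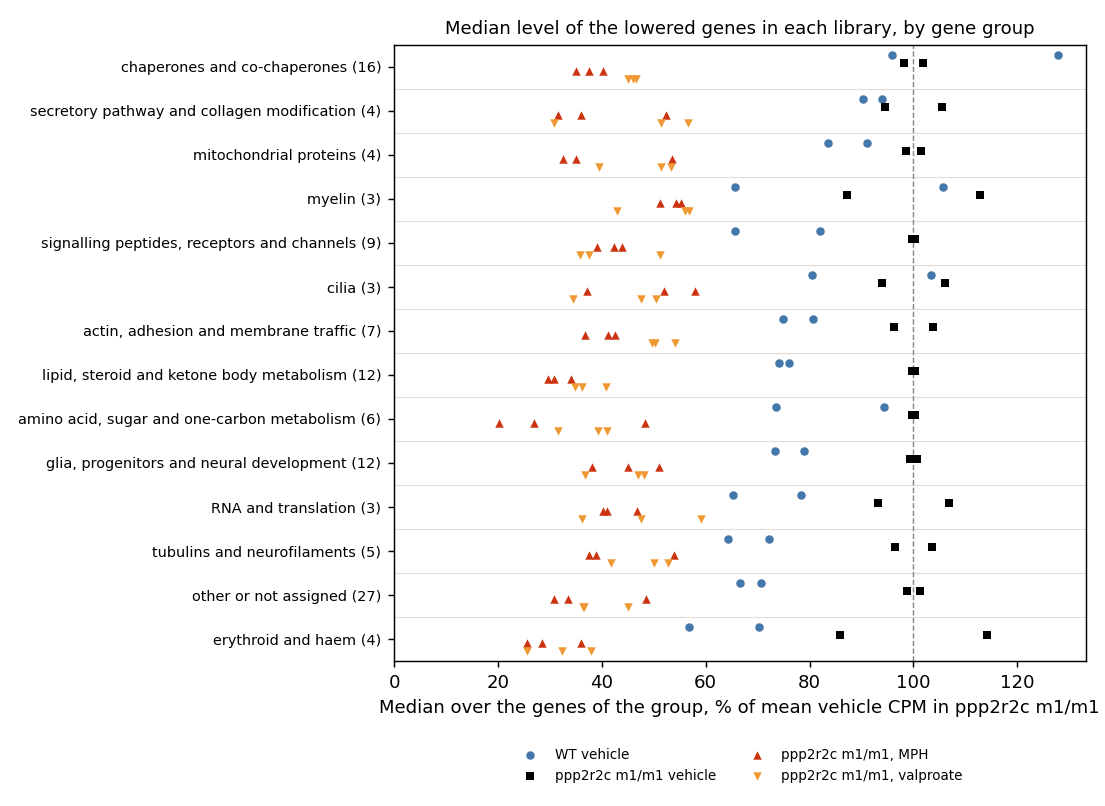
Median level of the lowered genes in each library (x axis, % of the mean CPM of the 2 *ppp2r2c* m1/m1 vehicle libraries) for each gene group (y axis, number of genes in brackets), with 1 point per library and groups ordered by their WT level. Drug libraries are low in every group by selection. The WT points sit at 95.9% and 128% for chaperones and at 64.2% and 72.3% for tubulins and neurofilaments.

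The largest group with a common role held 16 chaperones and co-chaperones. Their median level was 36.8% of vehicle under MPH and 46.1% under valproate. Unlike most of the other genes, the median chaperone was about as high in WT as in mutant vehicle brains. Mean WT levels in the group ran from 63.3% to 168% of vehicle. Both WT libraries were above both vehicle libraries in 4 of the 16 (25%, beside 24.1% of all genes) and below both in 1 (6.25%, beside 16.9%). The WT libraries stood at 95.9% and 128% of vehicle for the median chaperone, and in 15 of the 16 genes both WT libraries were above the highest drug library. Across all 15876 genes this held for 13.8%. For 14 of the 16 the highest drug value was also at most 0.67 times the lower WT value. This was true of 0.976% of all genes. The rule itself set the low drug values, so all genes are not a matched yardstick for these counts. Among all the genes chosen, chaperones included, 33.0% met this limit against WT. Both WT libraries were above every drug library in 69.6% of the chosen genes. With TMM scaling the number with both WT libraries above every drug library was again 15 (beside 9.92% of all genes). Of the 16, 11 were on a list of heat shock and folding genes and the others were grouped after their values were seen.

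*HSP90AA1* (ENSDARG00000024746), a gene for a cytosolic HSP90, had the highest level of the group. It measured 335 and 349 CPM in vehicle, 145, 113 and 115 CPM under MPH and 171, 142 and 199 CPM under valproate. In WT it measured 429.7 and 721 CPM, so that both WT libraries were above vehicle and the drug libraries were below it, with no overlap. As mean ± SD it was 575 ± 206 CPM in WT (n = 2), 342 ± 9.67 in vehicle (n = 2), 125 ± 18.1 under MPH (n = 3) and 170.4 ± 28.4 under valproate (n = 3). The HSP70 family member *HSPA8* (ENSDARG00000037403), a constitutive chaperone, followed the same order. Its levels were 214 and 260.2 CPM in WT, 173 and 167 in vehicle, 78.8, 102.2 and 78.7 under MPH and 107, 85.4 and 100.3 under valproate. A second gene with the symbol *HSPA8* (ENSDARG00000068992), not among the 115, was far more abundant and overlapped between the groups, at 2044 and 1888 CPM in vehicle, 2083, 1685 and 1026 under MPH and 2023, 1186 and 1177 under valproate. *HSPA4* (ENSDARG00000004754), an HSP110-type partner of HSP70, was at 101 and 104 CPM in vehicle and 90.6 and 116 CPM in WT. It was at 37.1, 42.3 and 39.9 CPM under MPH and 57.7, 47.3 and 51.3 under valproate, and all 3 MPH values were below all 3 valproate values. *FKBP4*, an immunophilin that works with HSP90, measured 218 and 231 CPM in WT and 230.5 and 219.6 in vehicle. Its drug values were 109, 123 and 141 CPM under MPH and 129, 140.5 and 132 under valproate, a narrow band well apart from the other libraries.

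Within the group, *hsp70l* and the first of the *SERPINH1* genes were furthest below vehicle under both drugs. *SERPINH1*, the collagen chaperone also called HSP47, is the symbol of 2 gene IDs here, and reads of such similar copies may be split between them. The first (ENSDARG00000019949) measured 20.1 and 19.3 CPM in vehicle and 17.5 and 7.44 in WT, but 0.967, 0.599 and 3.60 under MPH and 1.56, 4.73 and 3.50 under valproate. Its MPH mean was 8.75% and its valproate mean 16.6% of vehicle, and its ratio of highest drug to lower vehicle value, 0.245, was the lowest of all. The second (ENSDARG00000075954) was at 24.9% under MPH and 35.1% under valproate. The stress-inducible *hsp70l* measured 9.54 and 7.37 CPM in vehicle, 0.580, 1.58 and 0.943 under MPH and 2.57, 2.24 and 1.44 under valproate, with 5.91 and 14.0 in WT. Its relative *hsp70.3* had 7.94 and 7.80 CPM in vehicle and 1.78, 3.81 and 1.54 and 4.13, 3.43 and 1.58 under MPH and valproate. In WT, *hsp70.3* was at 3.86 and 19.8 CPM, which placed 1 WT library above all others and the other among the drug libraries. *HSPA2*, another HSP70 gene, was similarly uneven in WT (4.47 and 13.7 CPM) beside 7.72 and 5.94 in vehicle. The HSP70 genes are close in sequence, so the division of reads among them is uncertain.

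The co-chaperones described here were chosen for being lower in the drug libraries. Among J-domain genes on the heat shock and folding list that were not chosen, *dnajb1a* was below both vehicle libraries in all drug libraries. *DNAJB5*, *dnajb6a*, *dnajb6b*, *DNAJB9*, *DNAJB11* and *dnajc3a* overlapped with vehicle. The mean of *DNAJB5* was 143% of vehicle under MPH and 131% under valproate. The J-domain gene *dnaja* (ENSDARG00000051762) measured 31.0 and 37.0 CPM in vehicle, 7.27, 8.30 and 9.04 under MPH and 9.50, 10.3 and 11.11 under valproate, against 23.1 and 43.3 in WT. Each MPH value was below each valproate value. The relatives *dnaja1* and *dnajb1b* stood at 42.2% and 47.9% of vehicle under MPH and at 56.9% and 45.9% under valproate. *CHORDC1*, an HSP90 partner, was at 4.21 and 3.71 CPM in vehicle, at 6.47 and 5.07 in WT and between 0.596 and 2.44 in the drug libraries. The nucleotide exchange factor *BAG2* was at 35.3% under MPH and 36.1% under valproate, and *bag6*, which guards exposed hydrophobic stretches, lay just inside the limit with a ratio of 0.6694. For *bag6* the WT libraries (154 and 164 CPM) were below or within the vehicle range (189.6 and 162 CPM). The serpin gene *serpinh2* completed the group at 46.6% and 53.3%.

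**Figure D2:**
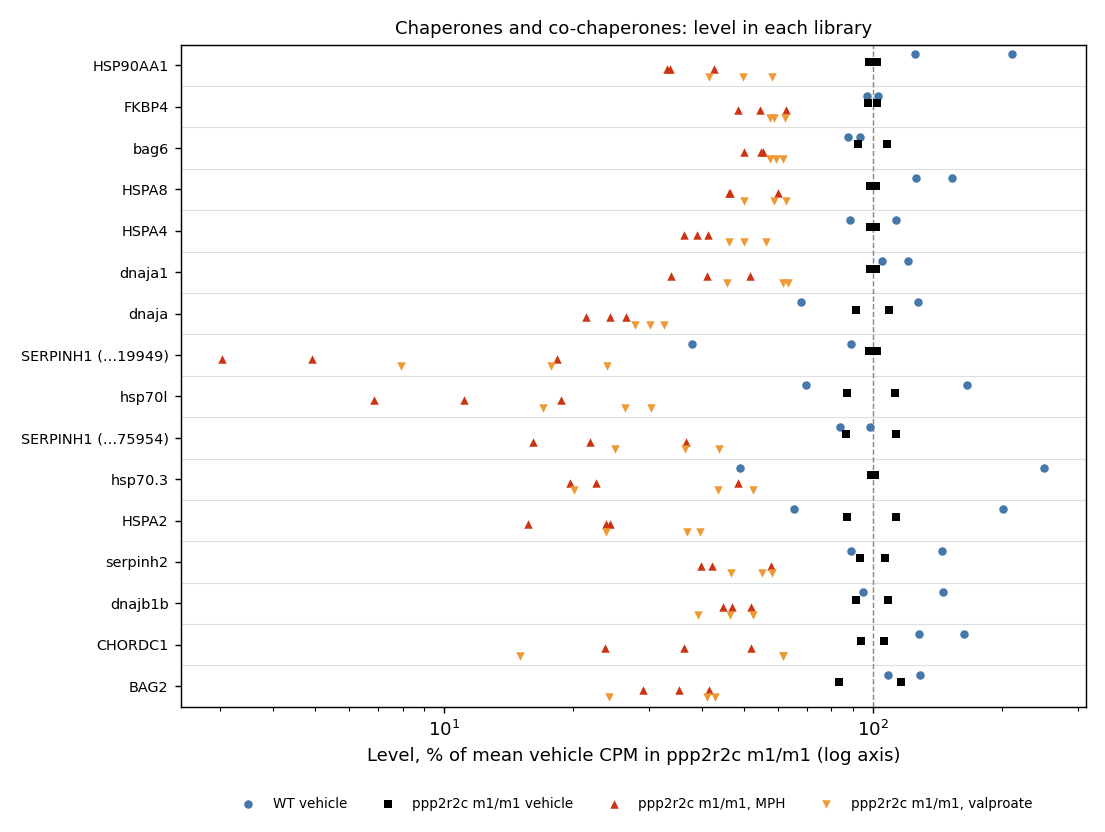
Level of the 16 chaperones and co-chaperones in each of the 10 libraries (x axis, % of the mean *ppp2r2c* m1/m1 vehicle CPM, log axis), 1 row per gene in order of vehicle level, with 1 point per library. The 6 drug points lie left of the vehicle points by selection, and in 15 of the 16 genes both WT points lie right of all drug points, the exception being *hsp70.3*.

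The wider list of heat shock and folding genes was read for comparison. It held 58 names, which matched 61 gene IDs, and 56 of them reached 2 CPM in vehicle. All 6 drug libraries were below both vehicle libraries in 26 of the 56 (46.4%, beside 12.3% of all genes), and above both in 1, *BAG3*. With TMM scaling the counts were 23 and 2. Of the 26, 11 are among the 115 and were chosen for this pattern. Without them it was 15 of 45 (33.3%), or 12 (26.7%, beside 10.5% of all genes) with TMM scaling. The genes outside the 0.67 limit included the endoplasmic reticulum chaperones *HSPA5* and *HSP90B1*, the HSP90 partner *STIP1* and the mitochondrial *HSPA9*. *HSPA5* (ENSDARG00000103846) measured 315 and 291 CPM in vehicle, 198, 211 and 154 under MPH and 201, 234 and 202 under valproate, or 61.9% and 70.0% of vehicle. The abundant cytosolic *HSP90AB1* did not separate the groups. It measured 2953 and 2581 CPM in vehicle, 2783, 2335 and 2304 under MPH and 2381, 2291 and 2253 under valproate. The median fitted log2 fold change over the list was −0.45 for MPH and −0.35 for valproate, beside 0.01 and 0.00 over all genes tested. After Benjamini-Hochberg adjustment over all genes in edgeR's quasi-likelihood test, 2 of 59 list genes tested were lower under MPH (*HSP90AA1* and *HSPA4*, both among the 16), none was higher, and 0 of 59 passed in either direction under valproate. The transcription factor *hsf1* itself overlapped between the groups.

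The tubulins and neurofilaments were among the most abundant of the 115 genes and differed from the chaperones in their WT levels. The group held 3 beta-tubulins (*tubb4bl*, *tubb5* and *TUBB2B*) and 2 neurofilament light chains (*nefla* and *NEFL*). In all 5, both WT libraries were below both vehicle libraries, a position found for 16.9% of all genes, and 22.5% with TMM scaling. Both WT libraries were also above every drug library in 4 of the 5 (beside 13.8% of all genes), and in 3 with TMM scaling (beside 9.92%). Both positions are favoured by the choice of genes. *tubb4bl* measured 919 and 857 CPM in vehicle, 617 and 492 in WT, 302, 275 and 478 under MPH and 336, 468 and 444 under valproate. Its mean ± SD was 888 ± 43.8 CPM in vehicle (n = 2), 554 ± 88.7 in WT (n = 2), 352 ± 110.1 under MPH (n = 3) and 416 ± 70.14 under valproate (n = 3). *tubb5* measured 356 and 287 CPM in vehicle, 188 and 232 in WT, 95.8, 94.3 and 174 under MPH and 96.3, 148 and 116 under valproate. For *TUBB2B* the values were 273 and 269 CPM in vehicle, 205 and 195.2 in WT, 105, 101.7 and 146 under MPH and 113, 149 and 149.6 under valproate. In each of the 3 genes MPH replicate 3 was well above the other MPH replicates, and its value was above all valproate libraries for *tubb4bl* and *tubb5*.

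The neurofilament gene *nefla* was less spread. It stood at 248 and 229 CPM in vehicle and 153 and 185.5 in WT, and at 125, 135 and 128 under MPH and 129, 126 and 148 under valproate. *NEFL* measured 79.3 and 78.2 CPM in vehicle and 42.7 and 74.1 in WT, so 1 WT library was within the drug range, which ran from 36.8 to 51.7 CPM. The families, selected by symbol after values were seen, were counted as a whole. Of 15 alpha- and beta-tubulins at 2 CPM or more, 10 had all drug libraries below both vehicle libraries and 0 had all above, beside 12.3% and 7.09% of all genes. Of 8 neuronal intermediate filament genes it was 5 and 0. Without the genes already among the 115, the numbers below vehicle were 7 of 12 tubulins, or 5 with TMM scaling, and 3 of 6 filament genes with either scaling. The medium chain gene *nefma*, at 516 and 516 CPM in vehicle, was at 272, 329 and 265 under MPH and 359, 282 and 313 under valproate. In contrast, the most abundant filament gene, *neff2*, overlapped at 2627 and 2587 CPM in vehicle, 3094, 2888 and 2504 under MPH and 2562, 2122 and 2400.5 under valproate. The tubulin *tubb4b* also overlapped, with its highest value in MPH replicate 1. Tubulin copies are similar in sequence and their read counts may be shared. Summed markers of neurons (10 gene IDs) ranged from 5983 to 6834 CPM in vehicle, from 4873 to 6626 under MPH and from 6276 to 7440 under valproate, with 0 of 10 lower in all drug libraries. The sums of 2 of the 3 MPH libraries were below both vehicle sums. The part of neuron number in these values was not tested.

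Among genes of myelin, *plp1b*, encoding a proteolipid of central myelin, had the highest vehicle level of all 115. It measured 1955 and 1490.5 CPM in vehicle, 1325 and 1131 in WT, 892, 935 and 882 under MPH and 977, 695 and 830.0 under valproate. The drug libraries were all below the WT libraries, and WT was below vehicle. The SD of the vehicle pair was large, at 1723 ± 328 CPM (n = 2), beside 903 ± 28.1 under MPH (n = 3). *UGT8* and *FA2H* make galactolipids of myelin, by adding galactose to ceramide and by hydroxylating fatty acids. *UGT8* measured 41.5 and 39.7 CPM in vehicle, 42.8 and 24.5 in WT, 23.6, 25.5 and 24.8 under MPH and 25.6, 17.4 and 22.7 under valproate. *FA2H* measured 67.0 and 51.8 CPM in vehicle, 76.8 and 41.9 in WT, 32.8, 25.5 and 27.6 under MPH and 29.3, 28.8 and 33.9 under valproate. For both lipid genes the WT libraries were far apart, with replicate 2 low, and for *UGT8* replicate 2 was within the drug range. Of 23 list genes for myelin and oligodendrocytes at 2 CPM or more, 11 (47.8%) had all drug libraries below both vehicle libraries and 0 had all above, beside 12.3% and 7.09% of all genes. The same list gave 10 with TMM scaling (beside 10.5% of all genes). Without the 2 list genes that are among the 115 it was 9 of 21, or 8 with TMM scaling. None of the 23 tested passed the adjusted test for either drug. Markers of oligodendrocytes moved in the same way. The sum of the 6 markers, of which *plp1b* is 1, was 10576 to 12855 CPM in vehicle, 7536 to 8861 under MPH, 6535 to 9740 under valproate and 9371 to 14259 in WT, and 5 of 6 were lower in all drug libraries. None was at 0. The part of oligodendrocyte number in these values was not tested.

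A further set comprised 12 genes of glia, progenitors and neural development. In 11 of them both WT libraries were below both vehicle libraries (beside 16.9% of all genes), with each of the scalings tried. In 6 both WT libraries were above every drug library (beside 13.8% of all genes). *SLC1A3* (ENSDARG00000043148), the glial glutamate transporter, measured 505 and 476 CPM in vehicle and 452 and 414 in WT. It measured 284, 261 and 310.3 CPM under MPH and 288, 302 and 307 under valproate. A second gene with the symbol *SLC1A3*, not among the 115, overlapped with vehicle. *FABP7* (ENSDARG00000034650), a fatty acid binding protein of radial glia, measured 31.8 and 47.0 CPM in vehicle, 29.8 and 27.9 in WT, 6.11, 5.56 and 21.2 under MPH and 14.1, 12.1 and 12.5 under valproate. For *FABP7*, MPH replicate 3 again stood apart from the other MPH replicates, between them and WT. A second *FABP7* gene (ENSDARG00000007697), not among the 115, was more abundant, at 1687 and 1468 CPM in vehicle, 1162, 1084 and 1092 under MPH and 1322, 802 and 721 under valproate. *NR2E1*, the stem cell nuclear receptor also known as tailless, was at 21.4 and 21.9 CPM in vehicle and 19.7 and 16.44 in WT, with 13.3, 12.5 and 12.8 under MPH and 8.03, 14.1 and 12.7 under valproate. The exception was *CRABP2*, a retinoic acid binding protein, whose WT libraries lay on either side of vehicle, at 4.00 and 3.22 CPM in WT and 3.51 and 3.66 in vehicle.

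Genes of neuron formation were in the same set. *INSM1*, a zinc finger factor of newborn neurons and endocrine cells, measured 42.4 and 35.7 CPM in vehicle, 19.8 and 30.1 in WT, 16.9, 17.5 and 23.7 under MPH and 14.2, 22.4 and 15.3 under valproate. *CCND2*, a cyclin used by neural progenitors, measured 18.6 and 21.8 CPM in vehicle and 15.8 and 16.1 in WT. It measured 9.94, 9.20 and 8.79 CPM under MPH and 10.6, 10.7 and 11.5 under valproate, with all MPH values below all valproate values and all drug values below WT. The proneural gene *atoh1c*, which marks granule cell progenitors of the hindbrain in zebrafish, was at 3.25 and 3.19 CPM in vehicle, 1.40 and 1.66 in WT, 0.503, 0.770 and 1.5003 under MPH and 0.413, 0.416 and 0.527 under valproate. For *DBX1*, a homeobox gene of interneuron progenitors, WT (0.930 and 0.900 CPM) was as low as the drug libraries, which reached from 0 to 1.41 CPM, and vehicle was at 2.39 and 2.33. The growth factor *fgf2* stood at 49.0% and 43.5% of vehicle under MPH and valproate, and *NTN1*, an axon guidance cue, at 53.7% and 53.2%. *ROR2*, a WNT receptor, and *DNMT3B*, a DNA methyltransferase, were at 32.7% and 52.2% under MPH.

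On the wider lists, 17 of 40 radial glia and neural stem genes (42.5%, beside 12.3% of all genes) had all drug libraries below both vehicle libraries, and 2 had all above. With TMM scaling these numbers were 13 and 1. Without the 3 list genes among the 115, those below were 14 of 37 (37.8%), or 10 with TMM scaling (beside 10.5% of all genes). For newborn neuron genes the numbers below and above were 9 and 2 of 43 (20.9% below), or 7 and 3 with TMM scaling. Without the 3 among the 115, 6 of 40 (15.0%) were below, or 4 (10.0%) with TMM scaling, which is near the share of all genes. Of 43 radial glia genes tested, 0 were called under MPH and 1 was lower under valproate (*FABP7*), and of 45 newborn neuron genes again 0 and 1 (*tubb5*), both being among the 115. The sum of 10 radial glia markers was 8839 to 9908 CPM in vehicle and 7694 to 7870 in WT. Under MPH it was 6802 to 8819 CPM and under valproate 6659 to 9151. The *FABP7* and *SLC1A3* genes among the 115 are 2 of these markers, and *SLC1A2* was at 0 in a library. Of the 10 markers, 4 were lower in all drug libraries. *GFAP*, *S100B*, both *GLUL* genes and the second *SLC1A3* gene were among those that overlapped. Markers of dividing cells summed to 147 to 183 CPM in vehicle and 86.4 to 114 in WT. They summed to 92.0 to 139 under MPH and 69.4 to 103 under valproate, and 4 of 5 were lower in all drug libraries. Among them, *mki67* and *TOP2A* had met the limits of the rule before their classes were left out. *CDK1* and *CCNB1* were lower without meeting the limits, and *PCNA* overlapped with vehicle. How far the number of progenitor cells sets these 12 genes was not tested.

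**Figure D3:**
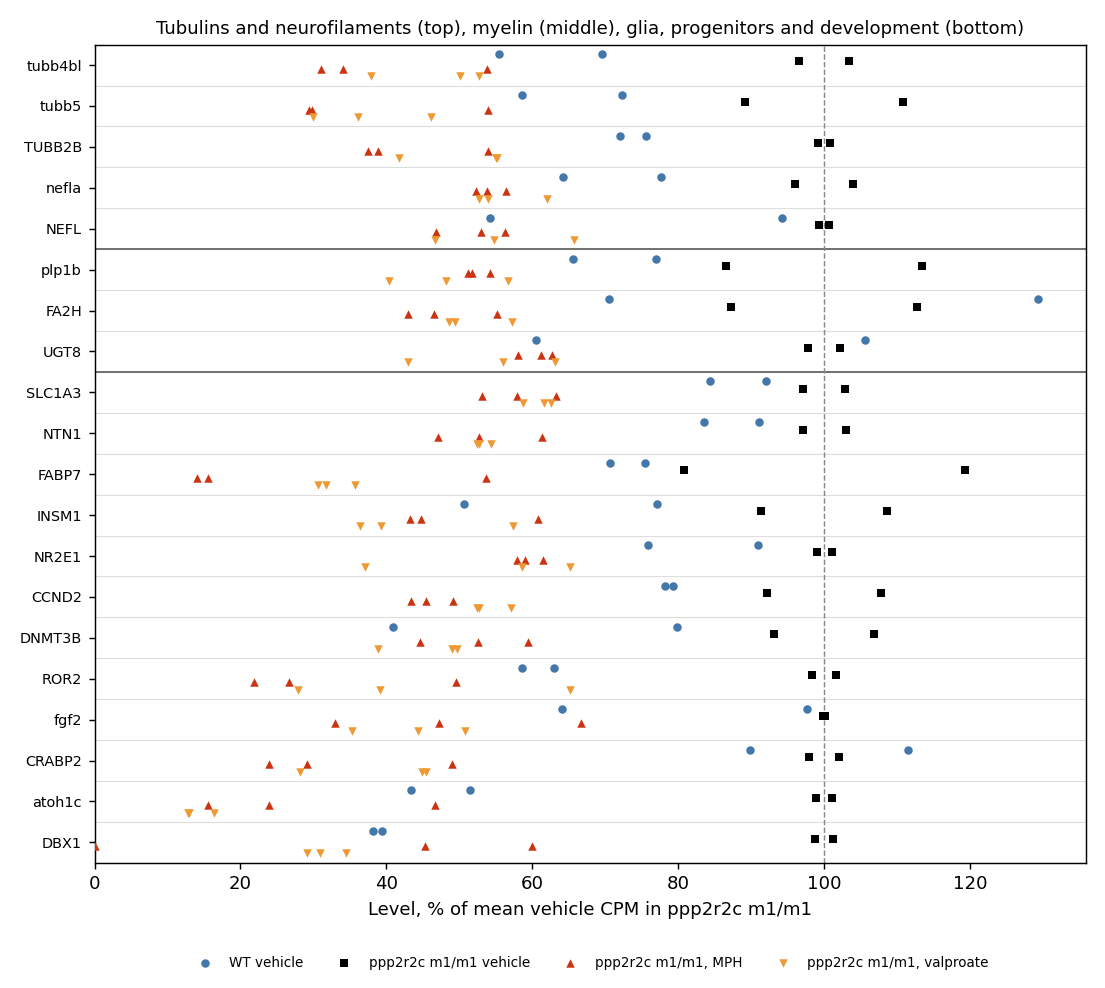
Level of tubulins and neurofilaments (top 5 rows), myelin genes (middle 3) and genes of glia, progenitors and development (bottom 12) in each of the 10 libraries (x axis, % of the mean *ppp2r2c* m1/m1 vehicle CPM), with 1 point per library. WT points lie left of both vehicle points in all 5 genes at the top and in 11 of the 12 at the bottom.

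Over all 115 genes, both WT libraries were above the highest drug library in 80 (69.6%, beside 13.8% of all genes). This count was 74 with TMM scaling (beside 9.92% of all genes). Both WT libraries were at or below the highest drug value in 8 genes, for which no share of all genes was taken. WT values above the drug libraries and WT values below vehicle are both favoured by the choice of genes. Both WT libraries were below both vehicle libraries in 66 genes (57.4%, beside 16.9% of all genes) and above both in 7 (beside 24.1% of all). The 7 were 4 chaperones (*HSP90AA1*, *HSPA8*, *dnaja1* and *CHORDC1*), *tfr1a*, *ANXA6* and *si:ch211-108d22.2*. At the upper end the mean WT level reached 174% of vehicle for the chemokine *ccl34b.4*, whose WT libraries were far apart (10.7 and 1.61 CPM), 168% for *HSP90AA1*, 150.1% for *hsp70.3*, 146% for *CHORDC1* and 143% for *si:dkey-1m11.6*. At the lower end it was 0.506% for *slc2a9l1*, which had vehicle counts in 1 library only. Next came 22.4% for *si:ch211-214p16.2*, 24.2% for ENSDARG00000075487, 35.2% for *klf1* and 35.8% for *ZNF367*. In edgeR's quasi-likelihood test of mutant vehicle against WT over 19695 genes, 0.193% of all genes (0.066% higher and 0.127% lower in the mutant) and 0 of 114 of these genes had an adjusted p under 0.05. An unadjusted p under 0.05 was found for 37 of the 114 (beside 10% of all genes), and DESeq2 called 8 (beside 1.29% of all genes). This comparison shares the vehicle libraries with the rule and is a description.

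**Figure D4:**
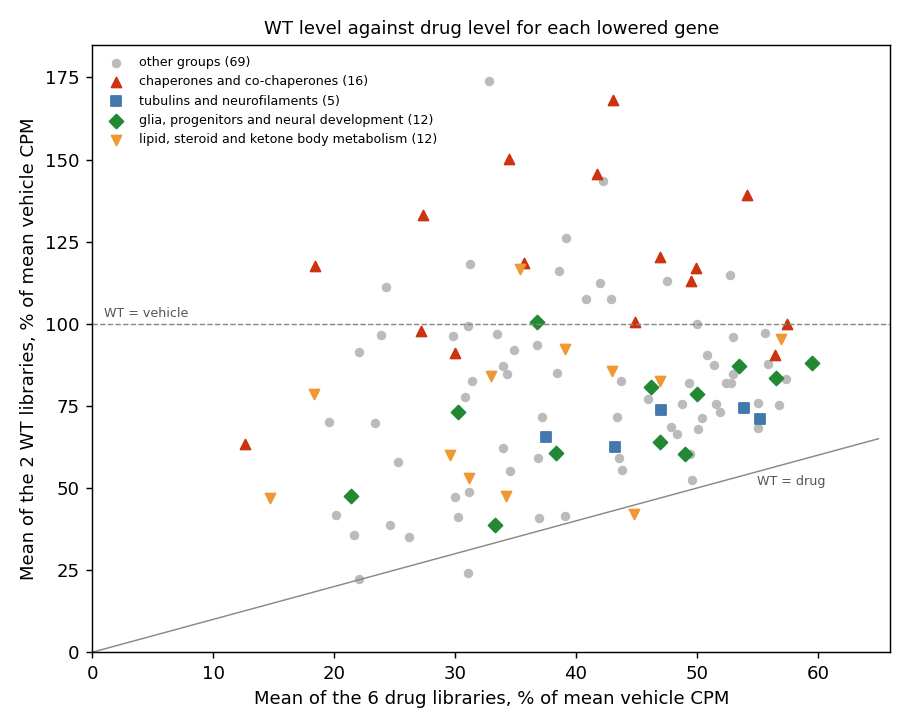
Mean level of the 2 WT libraries (y axis) against the mean of the 6 drug libraries (x axis), both in % of the mean *ppp2r2c* m1/m1 vehicle CPM, with 1 point per gene for 114 genes (*slc2a9l1* is not drawn). Most chaperones are near or above the dashed line where WT equals vehicle, while tubulins and neurofilaments are between that line and the solid line where WT equals drug. All points are left of the vehicle level by selection.

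Genes of lipid, steroid and ketone body metabolism made up 12 of the 115. In 9 of them both WT libraries were above every drug library (beside 13.8% of all genes), and in 10 both were below both vehicle libraries (beside 16.9%), or in 9 with TMM scaling (beside 22.5%). *cyp2ad6*, a cytochrome P450, measured 6.90 and 6.75 CPM in vehicle, 4.14 and 6.58 in WT, 0.426, 0.941 and 1.80 under MPH and 1.51, 1.82 and 1.01 under valproate. *hsd17b2*, which oxidizes and so inactivates sex steroids, was at 3.08 and 2.62 CPM in vehicle and 1.67 and 0.995 in WT. Its values were 0.464, 0.642 and 0.729 CPM under MPH and 0.138, 0.156 and 0.383 under valproate, with all MPH values above all valproate values, at counts of 17 or fewer per drug library. The acyl-CoA synthetase *ACSF2* measured 13.4 and 8.94 CPM in vehicle, 10.0 and 8.81 in WT, 3.75, 4.02 and 3.56 under MPH and 3.94, 2.81 and 4.02 under valproate.

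Further members of this group were described after their values were seen. *AACS*, which activates acetoacetate for lipid synthesis, measured 31.9 and 31.7 CPM in vehicle, 31.2 and 23.2 in WT, 11.3, 13.8 and 10.6 under MPH and 17.8, 14.6 and 13.8 under valproate. *cyb5b*, a cytochrome b5 of the outer mitochondrial membrane, measured 35.9 and 36.8 CPM in vehicle, 33.5 and 33.7 in WT, 8.78, 10.2 and 12.6 under MPH and 15.0, 17.997 and 20.6 under valproate. The WT libraries of *cyb5b* were just under vehicle, and the MPH libraries were all below the valproate libraries. *lpin1b*, a phosphatidate phosphatase gene, was at 23.1 and 23.0 CPM in vehicle and 13.0 and 8.91 in WT, so that WT was nearer to the drug libraries (3.56, 7.87 and 10.97 CPM under MPH and 9.08, 8.01 and 7.80 under valproate). The peroxisomal gene *PEX11A* had WT values (1.44 and 1.33 CPM) within the drug range.

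The 4 erythroid and haem genes were split by WT. *gata1a*, the master regulator of red cell genes, measured 4.34 and 6.89 CPM in vehicle, 3.26 and 1.42 in WT, 1.199, 1.15 and 1.24 under MPH and 1.28, 1.196 and 0.718 under valproate. *klf1*, its partner factor, measured 2.30 and 5.04 CPM in vehicle, 1.40 and 1.18 in WT, 1.35, 0.855 and 0.729 under MPH and 1.28, 0.728 and 0.814 under valproate. Both were thus highest in vehicle replicate 2 and low in WT as well. The transferrin receptor gene *tfr1a*, needed for iron uptake, was highest in WT (7.77 and 10.1 CPM, beside 6.68 and 7.46 in vehicle), and *CPOX*, an enzyme of haem synthesis, was at 15.6 and 15.3 in WT and 19.2 and 18.6 in vehicle. The sum of 5 blood markers was 326 to 355 CPM in vehicle, 71.5 to 328 under MPH, 68.6 to 104 under valproate and 135 to 346 in WT, with 2 of 5 lower in all drug libraries and *SLC4A1* at 0 in a library. MPH replicate 3 was as high as vehicle in this sum, while *gata1a* and *klf1* were low in it. The part of blood left in the brains was not tested.

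Mitochondrial proteins numbered 4. *LONP1*, the matrix protease, measured 54.8 and 54.7 CPM in vehicle, 45.6 and 59.5 in WT, 26.8, 23.0 and 29.4 under MPH and 26.9, 35.2 and 32.7 under valproate. *PHB2*, a prohibitin of the inner membrane, measured 38.8 and 41.0 CPM in vehicle and 39.4 and 28.4 in WT, and under MPH it was uneven at 8.39, 9.20 and 25.5 beside 10.1, 20.2 and 18.5 under valproate. Among 4 genes of the secretory pathway, *COLGALT1* and *P3H3* modify collagen, as *SERPINH1* folds it, and stood at 38.2% and 41.8% of vehicle under MPH and 45.8% and 39.9% under valproate. Both WT libraries were above all drug libraries in all 4 genes (beside 13.8% of all genes). None of the collagens themselves was among the 115, and 6 of 33 collagen genes at 2 CPM or more (18.2%, beside 12.3% of all genes) had all drug libraries below both vehicle libraries. Of the markers of mural cells and fibroblasts, 3 of 6 were lower in all drug libraries, and their sum was 119 to 142 CPM in vehicle, 84.0 to 97.8 under MPH, 81.2 to 94.9 under valproate and 140.4 to 169 in WT. Their part in the collagen-related values was not tested.

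In amino acid, sugar and one-carbon metabolism, *MTR*, which remakes methionine from homocysteine, measured 15.14 and 14.1 CPM in vehicle, 10.4 and 10.5 in WT, 4.26, 5.603 and 4.16 under MPH and 6.74, 5.25 and 6.61 under valproate. The drug libraries were all under 0.67 times the lower WT library as well. The serine racemase gene *srr*, for the enzyme that makes D-serine, was at 3.56 and 3.14 CPM in vehicle and 3.02 and 1.66 in WT, with 0.116, 0.813 and 2.06 under MPH and 0.183, 0.624 and 0.910 under valproate, which is a wide spread at low counts. *GALM* and *GALK2*, both of galactose handling, stood at 23.3% and 31.1% of vehicle under MPH and at 44.6% and 42.6% under valproate.

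Signalling genes included 3 neuropeptide genes. *nmbb*, which encodes neuromedin B, measured 19.99 and 15.4 CPM in vehicle, 14.3 and 5.35 in WT, 9.13, 8.43 and 7.76 under MPH and 6.33, 6.66 and 8.19 under valproate. Its copy *nmba* measured 3.56 and 3.66 CPM in vehicle and 3.58 and 2.37 in WT, with 2.17, 1.63 and 1.37 under MPH and 1.24, 1.196 and 1.87 under valproate. In *nmbb*, WT replicate 2 was below every drug library, while in *nmba* both WT libraries were above them. *CARTPT*, the cocaine- and amphetamine-regulated transcript, is a further neuropeptide gene and lay at the limit (ratio 0.6696). It measured 4.38 and 4.04 CPM in vehicle and 2.47 and 0.995 in WT, with 0, 0.770 and 0.557 under MPH and 2.71, 1.46 and 2.15 under valproate. The value of 0 in MPH replicate 1, like those of *DBX1* and *ABCC8* in the same library, allows up to 0.116 CPM. *PTGER3*, a prostaglandin E receptor, was at 3.12 and 3.14 CPM in vehicle and nearly the same in WT (3.12 and 2.94), but at 0.812, 1.03 and 0.343 under MPH and 0.459, 0.936 and 0.910 under valproate. *ABCC8*, the sulfonylurea receptor of potassium channels, measured 3.60 and 3.57 CPM in vehicle and 2.65 and 2.37 in WT, with 0, 1.28 and 1.46 under MPH and 0.229, 1.14 and 0.0958 under valproate. The alpha-1 adrenoceptor gene *adra1ab*, a receptor for noradrenaline, stood at 54.8% of vehicle under MPH and 51.1% under valproate.

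The remaining sets were 7 genes of actin, adhesion and membrane traffic, 3 of RNA and translation, 3 of cilia and 27 with other or unassigned roles. *TES*, a focal adhesion protein, measured 20.04 and 13.1 CPM in vehicle, 15.4 and 16.7 in WT, 2.67, 4.71 and 7.07 under MPH and 5.05, 6.92 and 6.85 under valproate. *ANXA6*, a calcium-dependent membrane binding protein, was highest in WT at 26.7 and 27.4 CPM, beside 22.9 and 24.2 in vehicle, 10.0, 9.71 and 13.4 under MPH and 15.3, 13.7 and 12.5 under valproate. The splicing factor gene *hnrnpa3* stood at 34.8% and 38.6% of vehicle under MPH and valproate, and the cap-binding *eif4eb* at 39.7% and 47.0%. *ZNF367*, a zinc finger gene, measured 3.77 and 4.99 CPM in vehicle but 2.14 and 0.995 in WT, with 1.35, 1.33 and 0.300 under MPH and 0.917, 0.936 and 0.862 under valproate. *zgc:92161* was at 35.96% and 26.4%, and *RNPEP*, an aminopeptidase, at 34.7% and 27.6%. 1 gene, *slc2a9l1*, met the rule only because its lower vehicle value and all drug values were 0. It had 212 counts in vehicle replicate 1 and 1 count in WT replicate 1, so it does not separate the groups, and it is the gene of the 115 that did not pass the filter on low counts.

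By the ratio of the highest drug to the lower vehicle value, the 12 lowest were *SERPINH1*, *cyp2ad6*, *hsd17b2*, *gata1a*, *PTGER3*, *hsp70l*, *dnaja*, *ZNF367*, *ABCC8*, *ACSF2*, *HSPA2* and *zgc:92161*, from 0.245 to 0.462. A ratio of 0.5 or less was found for 19 genes apart from *slc2a9l1*. Just inside the limit were *bag6*, *CARTPT* and *FAM107A* (0.6694, 0.6696 and 0.6697), and just outside were *rbm12ba*, *RHOBTB2* and *AP1M2* (0.675 for each).

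MPH and valproate were also compared with each other. The rule read the values of both drugs and took no gene that was high under either, which favours small differences, so the fit is given as a description of these genes and does not show that the drugs act alike on them. With edgeR's quasi-likelihood test on the 6 drug libraries, 0 of 19387 genes (percentage called: 0) and 0 of the 114 tested members of the set had an adjusted p under 0.05. At an unadjusted p under 0.05 there were 2 of the 114 and 787 (4.06%) of all genes. DESeq2 called 0 of the 114 and 41 (0.19%) of 21624 genes. The lowest adjusted p over the 114 was 0.997. The fitted log2 fold change of MPH over valproate was below 0 for 59 genes and above 0 for 55, with a median of −0.01. The 3 MPH libraries were all below the 3 valproate libraries in 10 of the 115 genes (8.70%, beside 6.49% of all genes), and all above in 4 (3.48%, beside 3.04%).

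The median half-width of the 95% interval was 0.85 on the log2 scale, and 53 of 114 intervals lay within −1 to 1, that is within a doubling either way. They were narrow for abundant genes. The log2 fold change was −0.01 (95% interval −0.29 to 0.27) for *FKBP4*, 0.03 (95% interval −0.28 to 0.34) for *SLC1A3* and 0.05 (95% interval −0.25 to 0.35) for *nefla*. It was −0.34 (95% interval −0.79 to 0.11) for *HSP90AA1*, −0.14 (95% interval −0.62 to 0.33) for *tubb4bl* and 0.21 (95% interval −0.23 to 0.64) for *plp1b*. The genes with an unadjusted p under 0.05 were *cyb5b*, at −0.66 (95% interval −1.10 to −0.22), and *CARTPT*, at −2.21 (95% interval −4.29 to −0.12), both with all MPH libraries below all valproate libraries. Neither passed after adjustment in edgeR (adjusted p = 0.997 for each).

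**Figure D5:**
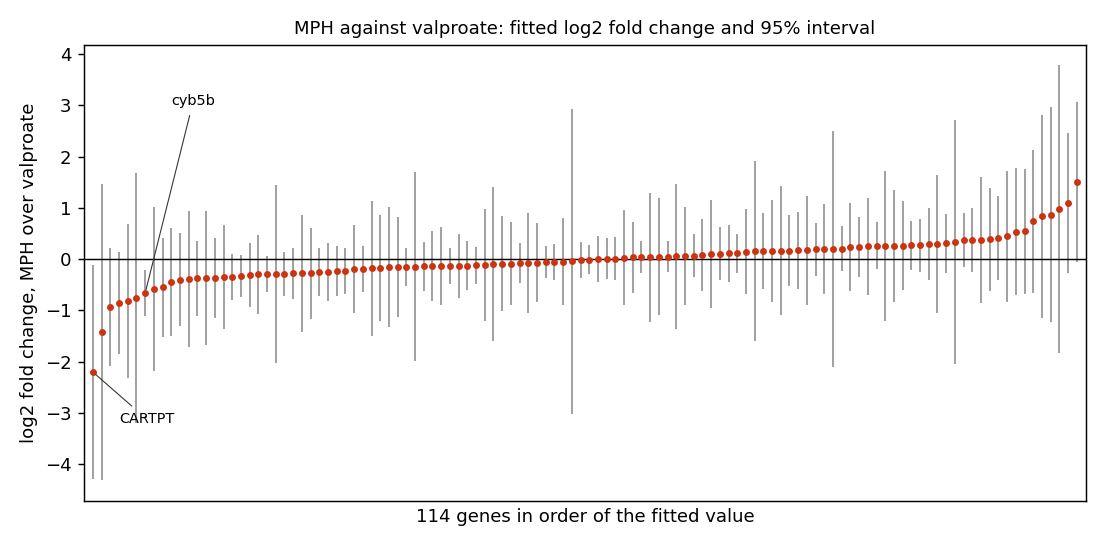
Fitted log2 fold change of MPH over valproate (y axis, points) with its 95% interval (vertical lines) from edgeR for the 114 genes tested, in order of the fitted value (x axis). Points run from −2.21 to 1.51 around a median of −0.01, and nearly all intervals span 0, the exceptions being *cyb5b* and *CARTPT*, which are named.

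The fits against vehicle use the contrasts from which the genes were taken, so their counts describe how much of the choice a per-gene test with 2 vehicle libraries could call. For MPH against vehicle, 0.216% of 19907 genes were called and 0.0603% were called lower, and of the 114 genes 4 were called (*dnaja*, *HSPA4*, *cyb5b* and *HSP90AA1*). For valproate against vehicle, 0.131% of 19850 genes were called and 0.0655% were called lower, and 6 of the 114 were called (*dnaja*, *FABP7*, *lpin1b*, *tubb5*, *TUBB2B* and *RNPEP*). *dnaja* was called in both. At an unadjusted p under 0.05, 100 of the 114 were lower under MPH (4.97% of all genes) and 112 under valproate (7.82% of all genes). The number called rested on single libraries. For MPH it was 43 without MPH replicate 3, 1 without replicate 1 and 0 without replicate 2, where 731, 17 and 7 of all genes were called. For valproate it was 64 without valproate replicate 1, 2 without replicate 3 and 0 without replicate 2, where 712, 67 and 0 of all genes were called. Leaving out either vehicle library gave 0 in both, with 12 and 1 of all genes called for MPH and 0 for valproate.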

How the data were processed

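RNA-seq libraries of zebrafish brain were analysed from the deposited counts, 32266 genes in 10 libraries. Per the study's methods the authors filtered reads with SOAPnuke, trimmed them, and mapped them to zv10 with STAR 2.6.1d, whose GeneCounts option gave the reads on each gene. The deposited values are raw counts without normalization, and which strand column was taken is not given in the sources used here. Symbols came from an ID table, which named 26433 of the genes, some in the form used for human genes.

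CPM was the count over the library total times 1e6. Only the libraries of the 2 groups compared entered a fit, in edgeR 4.0.16 under R 4.3.3. filterByExpr removed low genes (minimum count of 10, minimum total of 15), and TMM scaling preceded the quasi-likelihood test with Benjamini-Hochberg adjustment over all genes and a threshold of 0.05. Of the 115 genes, 114 passed the filter in each comparison. The fitting was tried on simulated counts, with planted changes larger than the median change of the 115 genes. They were planted only in genes above 5 CPM. That trial does not show how well smaller changes or changes in lower genes are called. Replicate numbers are not stated to pair the libraries, so the main fits held no block. Library pairs of a group shared equal counts for at most 1.05% of genes, so none was a repeat deposit. Alternatives were other ratio and level limits, other scalings and filters, DESeq2 1.42.0, 1 fit over all libraries, a replicate block and leaving out each library. Tables and plots used Python 3.11.15, pandas 2.3.3 and matplotlib 3.10.9.

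The genes, gene lists and alternatives were chosen with earlier results of these data known. Genes were described by rule: the 12 lowest ratios, the 8 highest vehicle levels, the 3 on each side of the ratio limit, up to 4 per gene list by vehicle level, any called between the drugs, and the 5 highest and 5 lowest WT levels relative to vehicle. Other genes, and the gene groups for 89 genes on no list, were added after their values were seen. A family of tubulin, filament and collagen genes was picked by symbol in the same way. Lists of 12 cell types served as markers. Those not described above (microglia, endothelium, skeletal muscle, retina with pineal and lens, pituitary, ependyma with choroid plexus) had 0 markers lower or higher in all drug libraries. Some of their sums still differed. Skeletal muscle markers summed to 4.75 to 7.03 CPM in vehicle, 12.7 to 17.4 under MPH and 8.06 to 14.3 under valproate. In WT they summed to 6.84 to 21.2 CPM. Ependyma and choroid plexus markers summed to 87.8 to 98.2 CPM in vehicle, 42.7 to 82.3 under MPH and 57.7 to 96.3 under valproate. Pituitary markers reached 60.1 CPM in MPH replicate 2 and 58.5 in valproate replicate 1.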

Additional observations from a re-analysis of the deposited data

How the results depend on the processing

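The number of genes depended on the limits set. With a ratio limit of 0.5 there were 20 genes and with 0.75 there were 251, and with a vehicle level of at least 5 CPM there were 73. TMM scaling gave 90 genes, of which 85 were among the 115, and DESeq2 size factors gave 95, of which 86 were. Leaving out 1 library gave 131 to 320 genes, since each library left out loosens the rule. The count was highest without vehicle replicate 1 (320) or vehicle replicate 2 (288), and was 188 without MPH replicate 3. Both WT libraries were above every drug library in 74 genes with either scaling, beside 9.92% (TMM) and 10.2% (DESeq2 size factors) of all genes. When 1 WT library was left out, the other was above every drug library in 90 to 97 genes. Asking this of 1 WT library instead of 2 can only raise the count, and no share of all genes was taken for it.

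No setting called any of these genes between MPH and valproate, while 0 to 41 of all genes were called. For MPH against vehicle the 4 calls became 55 with DESeq2, 32 with no filter on low counts and 30 in 1 fit over all 10 libraries, and 0 to 43 without 1 library. Over all genes the 43 calls became 496, 219, 143 and 1 to 731 in the same settings. For valproate against vehicle the 6 calls became 82 with DESeq2, 49 with no filter, 19 with at least 10 counts in every library and 1 in the fit over all libraries, and 0 to 64 without 1 library. Over all genes the 26 calls became 1073, 267, 78, 18 and 0 to 712. For mutant vehicle against WT the 0 calls became 8 with DESeq2 and 5 with no filter, and 0 to 14 without 1 library, 14 being without WT replicate 1 and 6 without WT replicate 2. Over all genes the 38 calls became 279, 272 and 31 to 494. The cause was not tested. With the replicate number as a block, 75 of these genes were called for MPH against vehicle (13.5% of all genes), 15 for valproate against vehicle (0.68% of all genes), and 0 in the other comparisons. In the fits against vehicle, replicate 3 of each drug had no vehicle library of its number, so it added nothing to the blocked contrast. Same-numbered libraries deviated from their group means with correlations between −0.29 and 0.27. With so few libraries in a group these deviations depend on each other, so they cannot decide whether the numbers mark pairs. Of 280 values for single genes under a scaling or without a library, 254 moved by less than 1 SD and 0 changed sign. These values were log2 ratios of the mean drug to the mean vehicle level. The genes were chosen to be low in every drug library, so leaving out a library could not change the sign.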
